A study of Drosophila melanogaster with 26 samples.

Results

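Ovaries with germline RNAi against *nsl3* were set against ovaries with RNAi against *white*, over every annotated gene of one deposited table. The table lists 15341 annotated genes, and 8899 of them reached a mean of 10 normalized reads over 6 libraries and were tested. These are 6 of the 12 ovarian RNA libraries with values in the series, with 3 NSL3 RNAi and 3 *white* RNAi libraries. In NSL3 RNAi females, GAL4 under the *nanos* promoter drove a hairpin against *nsl3*, named *Rcd1* in the table, in germ cells. In *white* RNAi females, the same driver acted on a hairpin against *white*, a gene of eye pigmentation. Both groups carried the driver with a *Dcr-2* transgene, and the adult daughters of the crosses received yeast for 3 to 5 days before whole ovaries were dissected. The somatic cells of those ovaries do not express the hairpin, and their RNA is read together with that of the germ cells. Each hairpin sits in its own fly line from a different stock collection, so the effect of the line and that of the knockdown cannot be told apart. The record and the methods name different stocks for the *nsl3* hairpin. The study describes the NSL3 RNAi ovaries as atrophied and names virgin *white* RNAi females as their control. The *white* columns of the table carry the name of the record without the word virgin, and the virgin sample was not analysed here.

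The non-specific lethal (NSL) complex is a chromatin complex that carries the histone H4 acetyltransferase MOF, and in fly cells it is best known at the promoters of housekeeping genes. In the fly ovary, germline stem cells give rise to cysts in which nurse cells replicate their DNA repeatedly and load mRNA into the oocyte. Somatic follicle cells surround each cyst, take part in yolk synthesis and secrete the eggshell layers late in oogenesis. A muscle sheath encloses the ovarioles, and tracheae, fat tissue and blood cells (hemocytes) lie against it.

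The libraries held 12482452 to 15127028 reads in NSL3 RNAi and 20820820 to 23021900 reads in *white* RNAi. Values are normalized reads, that is, reads divided by 1 size factor per library, and each triplet gives replicates 1, 2 and 3 in that order. Differences are log2 fold changes (log2FC) of value + 1, NSL3 RNAi over *white* RNAi, tested with limma over all features of the table. This scale understates the change of genes with few reads. A gene was called, and is said to have risen or fallen, with a Benjamini-Hochberg adjusted p below 0.05 and a change of more than 2-fold. The defining germline genes *nos*, *osk* and *vas* were detected in all 6 libraries. NSL3 RNAi replicate 2 stood apart. Across the tested genes, Pearson's r of log2 values with the other NSL3 RNAi libraries was 0.940 and 0.961, against 0.974 between replicates 1 and 3 and 0.990 to 0.992 among *white* RNAi libraries. Its r with the *white* RNAi libraries was 0.835 to 0.850, whereas replicates 1 and 3 had 0.708 to 0.769. These are correlations over 8899 genes of single libraries, given as a description. The numbers of listed genes called below are therefore also given without replicate 2 where they change.

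The targeted transcript was lower in each NSL3 RNAi library than in any control. *Rcd1* had 2366, 2930.0 and 2444 in NSL3 RNAi, against 4944, 5102 and 4574 in *white* RNAi, and the groups did not overlap (log2FC -0.92, SE 0.11, limma adjusted p = 3.34e-04). The difference was short of 2-fold, so *Rcd1* was not called. Without replicate 2 it was (log2FC -1.02), as were *dgt1* and *wds* (-1.17 and -1.06), and *dgt1* also passed without *white* RNAi replicate 3 (-1.05) and with scaling by total gene reads (-1.04). Its partners in the complex had lower means as well. *mof*, the acetyltransferase gene, had 599.6, 1029.7 and 662 in NSL3 RNAi, against 1833, 1739 and 1601 in *white* RNAi, and fell (log2FC -1.21, SE 0.20, limma adjusted p = 0.00162). The scaffold gene *wah*, which encodes NSL1, had 3629.6, 4923 and 4033 in NSL3 RNAi, against 6361, 6126 and 5808 in *white* RNAi (log2FC -0.55, SE 0.12, limma adjusted p = 0.00493, not called). *dgt1*, which encodes NSL2, had 679.5, 1034 and 682 in NSL3 RNAi, against 1623, 1618 and 1365 in *white* RNAi (log2FC -0.97, SE 0.19, limma adjusted p = 0.00259, not called). *wds*, a WD40 subunit shared with other complexes, *Rcd5* and *MBD-R2* had log2FC -0.88, -0.58 and -0.41 and were not called. Of the 7 genes of this list, 1 was thus called lower, where 14.6% of all tested genes were, and 0 higher, where 29.6% were. Of the 7, 4 were called lower without replicate 2, and all 7 were lower at an adjusted p below 0.05 with no fold minimum. Over all tested genes, 43.2% were lower and 37.0% higher with no fold minimum. In all 7, replicate 2 was the highest and replicate 1 the lowest NSL3 RNAi library. The target of the control hairpin went the other way, since *w* had 1155, 1310.0 and 1165 in NSL3 RNAi, against 174, 156 and 245 in *white* RNAi, and rose (log2FC 2.68, SE 0.19, limma adjusted p = 2.89e-05). The methods list the NSL3 RNAi stock and the driver line of both groups with a named allele of *w*, and the *white* RNAi stock without one. The part of these alleles was not tested. All values cover the whole ovary, in which fewer cells of a type and less RNA per cell cannot be told apart. The plot of 12 genes by library shows the target beside genes of each main group.

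**Figure D1:**
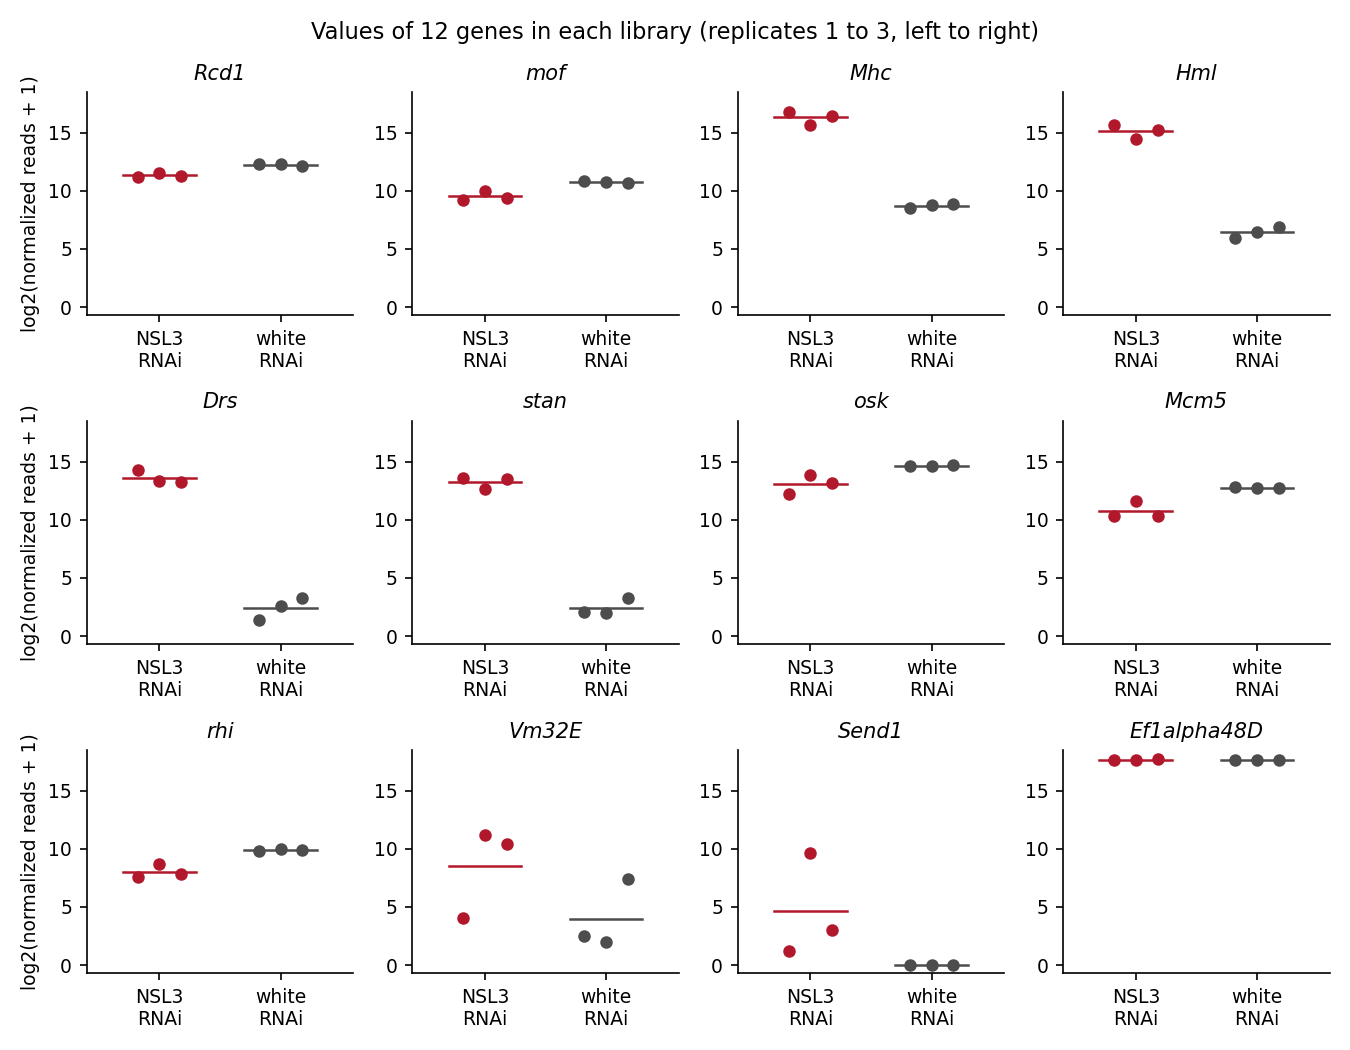
Each point is one library, NSL3 RNAi (left, red) and *white* RNAi (right, grey) with replicates 1 to 3 from left to right, on a log2(normalized reads + 1) axis, and each line is the mean of 3 libraries. *Rcd1* and *mof* lie slightly lower in NSL3 RNAi, *Mhc*, *Hml*, *Drs* and *stan* lie far higher, *osk*, *Mcm5* and *rhi* lie lower with replicate 2 nearest to the controls, and *Vm32E* and *Send1* scatter among the NSL3 RNAi libraries.

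Of 8899 genes, 3930 were called (44.2%). Of these, 2635 rose (29.6%) and 1295 fell (14.6%), while 4969 were not called. The rises were larger than the falls. Of the genes that rose, 653 had a log2FC above 5, and their median was 3.41. Of those that fell, 1222 had a log2FC between -1 and -2, and their median was -1.29. The genes that rose had a median of 253 normalized reads in NSL3 RNAi and 14.5 in *white* RNAi. Those that fell had a median of 602 in NSL3 RNAi and 1495 in *white* RNAi. Genes called higher held 30.8% of all gene values in NSL3 RNAi and 4.97% in *white* RNAi. Genes called lower held 8.13% in NSL3 RNAi and 21.8% in *white* RNAi.

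The direction went with the control level. Among 3938 genes with a *white* RNAi mean of at least 1000, 207 rose and 845 fell. Among 2630 genes from 100 to 1000, 459 rose and 417 fell, and among 1109 genes from 10 to 100, 804 rose and 33 fell. The control level is also the denominator of the fold change. Genes with a control mean slightly above 10 that fall drop under the minimum and go untested, so this last split is partly set by it. A further 1222 genes had a *white* RNAi mean under 10 and reached the minimum only through their NSL3 RNAi values, so they had to differ. Of these, 1165 rose and 0 fell. They are part of the 2635 rises, of the sizes given above and of the 29.6% share. Lists below with more than 3 genes that passed only through NSL3 RNAi are marked, and their counts are partly set by that minimum. The median log2FC of all tested genes was -0.12, and size factors recomputed from genes alone as a median of ratios moved it to -0.02, a shift against which small changes are to be read. Without replicate 2, 2671 genes rose and 1791 fell.

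**Figure D2:**
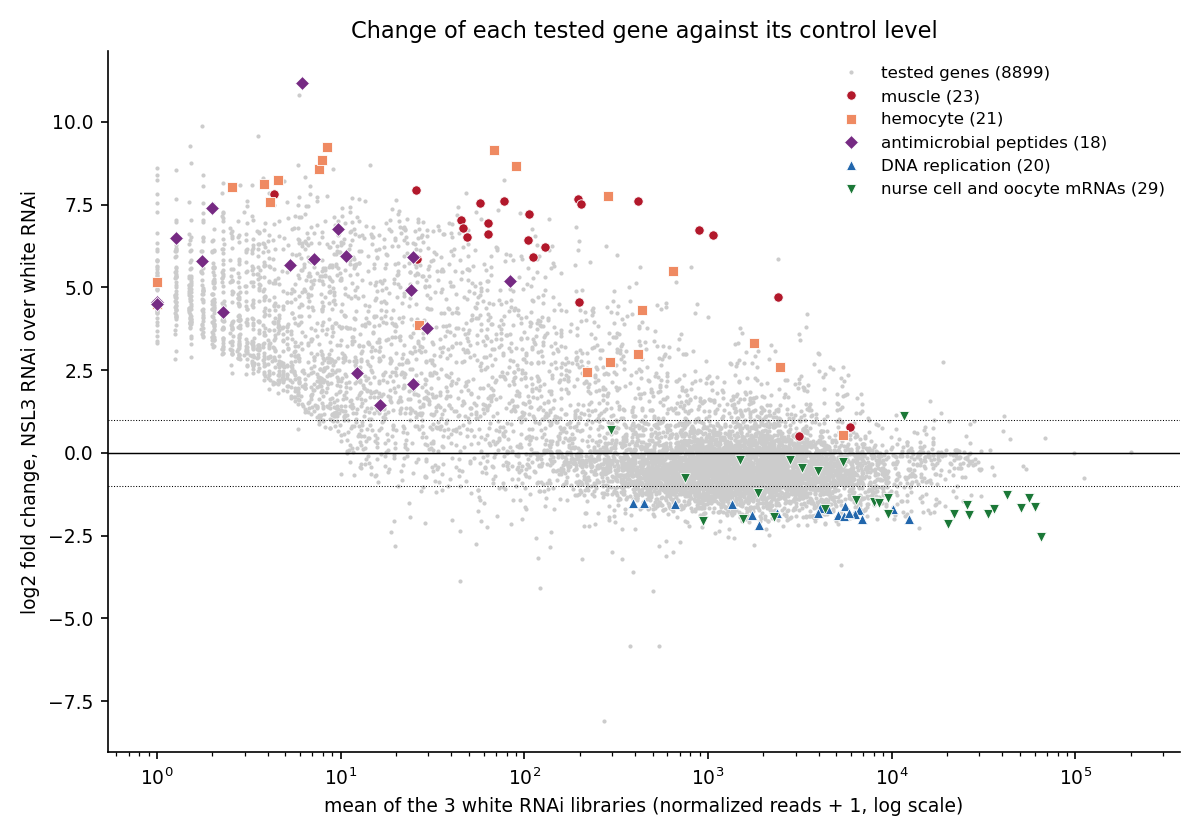
Each grey point is one of the 8899 tested genes, with the log2FC (NSL3 RNAi over *white* RNAi) on the vertical axis against the *white* RNAi mean + 1 on a log axis, dotted lines mark 2-fold changes, and 5 lists are coloured. Muscle, hemocyte and antimicrobial peptide genes lie at the top, and genes of DNA replication and most of those of nurse cells and oocytes lie below the dotted line at -1.

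Among genes with a mean of at least 100 in the higher group and no overlap between groups, the largest rise was that of *Drs*, which encodes the antifungal peptide drosomycin. It had 20029, 10066 and 9524 in NSL3 RNAi, against 1.57, 5.16 and 8.67 in *white* RNAi (log2FC 11.18, SE 0.51, limma adjusted p = 7.46e-06). *stan*, an atypical cadherin of planar cell polarity, had 12223, 6610.4 and 11344 in NSL3 RNAi, against 3.15, 2.95 and 8.67 in *white* RNAi (log2FC 10.81, SE 0.40, limma adjusted p = 6.58e-06). Both genes had at most 8.67 normalized reads in any control. The prophenoloxidase genes *proPO-A1* and *proPO45*, which hemocytes use to make melanin, followed. *proPO-A1* had 5346, 3839 and 6557 in NSL3 RNAi, against 7.87, 6.63 and 7.88 in *white* RNAi (log2FC 9.25, SE 0.23, limma adjusted p = 5.98e-06), and *proPO45* had 3924, 2489.6 and 3954 in NSL3 RNAi, against 3.15, 7.37 and 10.2 in *white* RNAi (log2FC 8.85, SE 0.39, limma adjusted p = 7.20e-06). *Pxn*, a peroxidase of the extracellular matrix, had 52488, 25237 and 41344 in NSL3 RNAi, against 58.3, 69.3 and 73.3 in *white* RNAi (log2FC 9.13, SE 0.26, limma adjusted p = 6.58e-06), and *Hml*, the clotting protein hemolectin, had 51144, 22473 and 38853 in NSL3 RNAi, against 61.4, 87.7 and 117 in *white* RNAi (log2FC 8.68, SE 0.34, limma adjusted p = 6.58e-06). These are hemocyte markers, which makes 4 of the 12 largest rises. *Tdc1*, a tyrosine decarboxylase, had 7533, 3565 and 6973 in NSL3 RNAi, against 7.87, 18.4 and 14.2 in *white* RNAi (log2FC 8.70, SE 0.38, limma adjusted p = 7.20e-06). *CG42807* and *CG4950* rose by log2FC 9.55 and 8.70. The remaining 3 had 2 or 3 reads over all controls. *CG13403* had 3668 reads in NSL3 RNAi against 3 in *white* RNAi, a ratio of 2021 at equal depth (95% counting interval 691 to 9803). *CG43112* had 2295 reads in NSL3 RNAi against 2 in *white* RNAi (ratio 1897, 524 to 15669.6), and *hoe2* had 1546 in NSL3 RNAi against 2 in *white* RNAi (ratio 1278, 353 to 10559). These intervals cover counting error only. Of the 12, all but *Pxn*, *Hml* and *Tdc1* had a *white* RNAi mean under 10. Those genes passed the minimum only through their NSL3 RNAi values, so they had to differ.

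Muscle genes rose together. Of 23 tested of 29 listed, 21 rose and 0 fell (median log2FC 6.73, beside -0.12 over all genes), and 1 of them passed only through NSL3 RNAi. The summed level of the list was 356827 to 714376 normalized reads in NSL3 RNAi and 14391 to 15750.5 in *white* RNAi. *Mhc*, the myosin heavy chain, had 111931, 52682 and 90817 in NSL3 RNAi, against 356, 441 and 452 in *white* RNAi (log2FC 7.61, SE 0.27, limma adjusted p = 6.58e-06). *sls*, the fly titin, had 125678, 60884 and 105639 in NSL3 RNAi, against 727, 983 and 952 in *white* RNAi (log2FC 6.73, SE 0.27, limma adjusted p = 6.58e-06), and *bt*, projectin, had 139629, 64162 and 117645 in NSL3 RNAi, against 837, 1158 and 1205 in *white* RNAi (log2FC 6.59, SE 0.29, limma adjusted p = 7.40e-06). All 3 were among the 10 genes with the highest mean in NSL3 RNAi, and even replicate 2, the lowest, lay far above every control. The troponin genes *up* and *wupA* and the muscle actin gene *Act57B* were among the 10 genes with the largest test statistic (log2FC 7.59, 6.94 and 7.52). *Tm1* and *Actn*, which non-muscle cells use as well, were not called (log2FC 0.78 and 0.50). The flight muscle genes *Act88F* and *fln* had at most 1.43 normalized reads in any NSL3 RNAi library and were not tested. Each of the 23 genes was highest in NSL3 RNAi replicate 1 and lowest in replicate 2, where they had a median of 0.513 times their replicate 1 value.

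Hemocyte genes showed the same direction, with 20 of 21 higher and 0 lower (median log2FC 5.50, or 5.62 with genes at 0 control reads set at their bound). Of these 21, 9 passed only through NSL3 RNAi. The summed level was 163109 to 306175 in NSL3 RNAi and 11051 to 13619.6 in *white* RNAi. The count was 19 without any one of the NSL3 RNAi libraries. The phagocytosis receptor gene *nimC1* had 2201, 1046 and 968 in NSL3 RNAi, against 1.57, 4.42 and 4.73 in *white* RNAi (log2FC 8.24, SE 0.44, limma adjusted p = 1.07e-05). *He*, the surface marker hemese, had 54.2, 17.028 and 45.7 in NSL3 RNAi and 0 reads in *white* RNAi, at least 49.0-fold higher taking 3 reads over the 3 controls as the floor. *lz*, the Runx factor of crystal cells, was likewise at 0 in *white* RNAi and at least 28.1-fold higher. The blood GATA factor gene *srp* had 1244, 896 and 1389 in NSL3 RNAi, against 161, 217 and 273 in *white* RNAi (log2FC 2.44, SE 0.24, limma adjusted p = 1.49e-04). The CD36-like receptor gene *crq*, also active in the control ovary, was not called (log2FC 0.53).

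Genes of the basement membrane and its receptors rose in 18 of 20 cases (median log2FC 4.18, 0 lower). *trol*, perlecan, had 77715, 43362 and 68605 in NSL3 RNAi, against 2762, 2888 and 4662 in *white* RNAi (log2FC 4.20, SE 0.27, limma adjusted p = 2.18e-05). *LanA*, a laminin alpha chain, had 49226, 24749 and 40265 in NSL3 RNAi, against 2363, 2739.7 and 4286 in *white* RNAi (log2FC 3.60, SE 0.30, limma adjusted p = 6.61e-05), and *if*, an alpha integrin, rose more (log2FC 5.95). Collagen IV, encoded by *Cg25C* and *vkg*, rose less (log2FC 3.32 and 2.58). *Ilk* and the glypican gene *dlp* were not called (log2FC 0.73 and -0.67). *Pxn* and *Ppn* are in this list and in that of hemocytes.

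Most markers of fat, nerve and glia rose as well. Of 13 tested fat body genes of 18, 11 rose and 0 fell (median log2FC 3.43; 5 passed only through NSL3 RNAi), with a summed level of 12793 to 27523 in NSL3 RNAi and 4783 to 5406 in *white* RNAi. *Tsf1*, transferrin, had 4655, 1285 and 3185 in NSL3 RNAi, against 84.2, 122 and 121 in *white* RNAi (log2FC 4.62, SE 0.45, limma adjusted p = 1.29e-04), and the apolipophorin gene *Rfabg* had 16406, 6415 and 5729 in NSL3 RNAi, against 1046, 1285 and 1622 in *white* RNAi (log2FC 2.70, SE 0.40, limma adjusted p = 9.34e-04). Of 11 tested neuronal and glial genes of 19, 10 rose and 0 fell (median log2FC 3.94; 4 passed only through NSL3 RNAi), with a summed level of 7012 to 12735 in NSL3 RNAi and 261 to 419 in *white* RNAi. The neuronal RNA-binding protein gene *elav* had 1567, 840.1 and 1436 in NSL3 RNAi, against 44.1, 48.6 and 45.7 in *white* RNAi (log2FC 4.72, SE 0.25, limma adjusted p = 1.07e-05), and *nrv2*, a sodium pump subunit of glia, had 6430.1, 3524 and 5763 in NSL3 RNAi, against 91.3, 107 and 151 in *white* RNAi (log2FC 5.47, SE 0.27, limma adjusted p = 9.21e-06). The synaptic genes *Syt1*, *Snap25* and *VGlut* stayed at or below 11.6 normalized reads in every library and were not tested. Of 23 testis-biased genes only 5 were tested, 2 rose and 1 fell, and the sperm genes *dj* and *Mst35Bb* had at most 1.43 normalized reads in any library. Whether the amount of each tissue attached to the dissected ovaries took part in these rises was not tested.

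Among the genes with the highest mean in NSL3 RNAi, *CG43134* had 193873, 102918 and 139998 in NSL3 RNAi, against 2263, 2463 and 2518 in *white* RNAi (log2FC 5.87, SE 0.21, limma adjusted p = 6.58e-06), which placed it second after *Ef1alpha48D*. The noncoding RNA *CR34335* had 143790.0, 105828 and 129670.0 in NSL3 RNAi, against 16385, 16906 and 23684 in *white* RNAi (log2FC 2.74, SE 0.18, limma adjusted p = 2.09e-05). *snRNA:7SK*, the RNA that holds the elongation factor P-TEFb inactive, had 105156, 73273 and 87261 in NSL3 RNAi, against 38075, 40824 and 42969.9 in *white* RNAi (log2FC 1.11, SE 0.14, limma adjusted p = 4.96e-04), and was short of 2-fold without NSL3 RNAi replicate 1 (0.98). The translation elongation factor genes *Ef1alpha48D* and *Ef2b* had overlapping groups, with 199871, 200333 and 211424 for *Ef1alpha48D* in NSL3 RNAi and 202193, 199331 and 201038 in *white* RNAi, and the sign of their small differences flipped with the scaling. *Hsc70-4* and *Hsp83*, the constitutive chaperones, differed in opposite directions without being called (log2FC 0.44 and -0.77). The remaining genes of the 10 largest statistics were *dp*, a giant extracellular protein (log2FC 6.64), the peptidase gene *Nep3* (7.70), the odorant-binding protein gene *Obp57a* (7.59), and *CG9813* (7.40) and *CG7443* (6.56). All of them rose, and their values varied by less than 2-fold among the NSL3 RNAi libraries.

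The 18 tested of 25 listed antimicrobial and immune-induced peptide genes were higher in each NSL3 RNAi library than in any control. Over all tested genes, the groups did not overlap in 3909 of 3930 called and 3721 of 4969 not called genes. All 18 tested antimicrobial and immune-induced peptide genes rose (median log2FC 5.44, also with genes at 0 control reads set at their bound), 11 of which passed only through NSL3 RNAi. Without replicate 3 of NSL3 RNAi 16 were called and by DESeq2 16. *Def*, defensin, had 3454, 3289.9 and 2445 in NSL3 RNAi, against 74.0, 105 and 69.4 in *white* RNAi (log2FC 5.20, SE 0.21, limma adjusted p = 6.58e-06), and *Dro*, drosocin, had 781, 1634 and 881 in NSL3 RNAi, against 6.30, 9.58 and 10.2 in *white* RNAi (log2FC 6.77, SE 0.34, limma adjusted p = 8.87e-06). The NSL3 RNAi libraries differed at most 1.41-fold for *Def* and 2.09-fold for *Dro*, and far more for the diptericin genes. *DptB* had 235, 3708 and 231 in NSL3 RNAi, against 3.94, 15.5 and 9.46 in *white* RNAi (log2FC 5.95, SE 1.09, limma adjusted p = 0.00215), and *Dpt* had 183, 3019.7 and 104 in NSL3 RNAi, against 23.6, 40.5 and 21.3 in *white* RNAi (log2FC 3.78, SE 1.16, limma adjusted p = 0.0191). In both, replicate 2 stood more than 10-fold above the other NSL3 RNAi libraries. *Dpt* was no longer called without *white* RNAi replicate 1 or 3, at adjusted p = 0.0511 and 0.0592 by limma, and neither diptericin gene has an adjusted p in DESeq2. *AttA* and *AttB*, as well as *CecA1* and *CecA2*, are near-identical pairs whose reads may have been split by the counting. Of 20 genes of the Toll and Imd pathways, 8 rose (40%, beside 29.6% of all genes) and 2 fell (10%, beside 14.6%). Their median log2FC was 0.69, and 10 rose and 3 fell without replicate 2. Of the 8 that rose, 5 passed only through NSL3 RNAi, and of the 15 genes with a *white* RNAi mean of at least 10, 3 rose. *Dif*, an NF-kappaB factor of adult immunity, had 6532, 3317 and 5803 in NSL3 RNAi, against 57.5, 83.3 and 93.0 in *white* RNAi (log2FC 6.02, SE 0.29, limma adjusted p = 8.37e-06). *dl*, the NF-kappaB factor stored in the egg, was not called (log2FC -0.35), *Rel* was not called (log2FC 0.81; called without NSL3 RNAi replicate 2, 1.02), and the maternal receptor gene *Tl* had 3111, 7773 and 3897 in NSL3 RNAi, against 16329, 16962 and 14965 in *white* RNAi, and fell (log2FC -1.82, SE 0.31, limma adjusted p = 0.00168).

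In the ovarian soma, 14 of 18 tested genes rose and 0 fell (median log2FC 2.80; 3 passed only through NSL3 RNAi). *Fas3*, an adhesion protein of polar and early follicle cells, had 14865, 7897 and 13163 in NSL3 RNAi, against 429, 502 and 646 in *white* RNAi (log2FC 4.48, SE 0.26, limma adjusted p = 1.37e-05). *bab2*, a factor of terminal filament cells, had 1467, 759 and 1412 in NSL3 RNAi, against 8.66, 11.8 and 14.2 in *white* RNAi (log2FC 6.56, SE 0.32, limma adjusted p = 8.19e-06), and *eya*, a factor of main body follicle cells, had 2438, 1471 and 2333 in NSL3 RNAi, against 168, 217 and 309.8 in *white* RNAi (log2FC 3.17, SE 0.28, limma adjusted p = 7.99e-05). *tj*, the Maf factor of somatic gonad cells, had 508, 629 and 647 in NSL3 RNAi, against 305, 290.4 and 471 in *white* RNAi, with no overlap but a difference below 2-fold (log2FC 0.77, SE 0.22, limma adjusted p = 0.0134). *Cad99C*, *kek1* and *ttk* were not called either (log2FC 0.79, 0.76 and -0.087), and *slbo*, the border cell factor, had at most 13.6 normalized reads and was not tested. Yolk protein gene *Yp1* had 23284, 22732 and 17854 in NSL3 RNAi, against 2854, 3364 and 5894 in *white* RNAi, and with *Yp2* and *Yp3* it rose (log2FC 2.46, 1.77 and 2.64).

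Of 23 tested signalling genes of the ovary, 9 rose (39.1%, beside 29.6% of all genes) and 1 fell (4.35%, beside 14.6%), and without replicate 2 11 rose and 2 fell. The number that fell was also 2 without *white* RNAi replicate 2 or 3. The BMP ligand gene *dpp* had 2859.8, 1413 and 2652 in NSL3 RNAi, against 34.6, 42.014 and 68.6 in *white* RNAi (log2FC 5.54, SE 0.35, limma adjusted p = 1.82e-05), and the BMP ligand gene *gbb* also rose (log2FC 4.32), as did *Dad*, an inhibitory Smad induced by BMP signalling (log2FC 3.06). The hedgehog receptor gene *ptc*, a target of the pathway, had 815, 594 and 918 in NSL3 RNAi, against 33.1, 28.7 and 51.2 in *white* RNAi (log2FC 4.35, SE 0.28, limma adjusted p = 1.91e-05). *Egfr* and the feedback inhibitor gene *sty* rose (log2FC 2.31 and 3.10). The Notch ligand gene *Dl*, made by germ cells, had 606, 1659 and 955 in NSL3 RNAi, against 3188, 2981 and 2905 in *white* RNAi, and fell (log2FC -1.61, SE 0.33, limma adjusted p = 0.00323), whereas *N* and *Stat92E* were not called (log2FC 0.27 and -0.034). Among 19 cadherin, septate junction and planar polarity genes, 12 rose and 1 fell (11 rose without replicate 2). Beside *stan*, the septate junction gene *cora* had 24779, 13209.5 and 22930.2 in NSL3 RNAi, against 807, 818 and 998 in *white* RNAi (log2FC 4.49, SE 0.24, limma adjusted p = 1.05e-05), and *ds*, *pk* and *fj* rose (log2FC 4.27, 3.04 and 3.73). Their polarity partners *Vang* and *dsh* were not called (log2FC -0.45 and -0.49), *dgo* fell (log2FC -1.09, but short of 2-fold at -0.95 without NSL3 RNAi replicate 3, -0.92 by DESeq2 and -0.98 with scaling over genes alone), and *kug*, the follicle cell cadherin Fat2, was not called (log2FC -0.31).

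Most listed genes of nurse cells and oocytes fell. Of 29 tested genes of nurse cells and oocytes, 21 fell and 1 rose (median log2FC -1.52). *nos*, a translational repressor of the posterior pole, had 2668, 9689 and 3630.2 in NSL3 RNAi, against 20999, 21075 and 18333 in *white* RNAi (log2FC -2.14, SE 0.43, limma adjusted p = 0.00312). *osk*, the organizer of germ plasm, had 4848, 14686 and 9160.4 in NSL3 RNAi, against 25020.1, 26008 and 26318 in *white* RNAi (log2FC -1.57, SE 0.36, limma adjusted p = 0.0052). *dhd*, a thioredoxin of the mature oocyte, had 6536, 18874 and 10796 in NSL3 RNAi, against 64857, 67936 and 61407 in *white* RNAi, and the largest fall of the list (log2FC -2.56, SE 0.34, limma adjusted p = 6.38e-04). In each of these genes replicate 2 lay closest to the controls, and the groups did not overlap. *tud*, a Tudor protein of the nuage, was the one that rose, with 29184, 19539.5 and 26767 in NSL3 RNAi, against 10882, 11591 and 12342 in *white* RNAi (log2FC 1.10, SE 0.15, limma adjusted p = 8.06e-04), and it was short of 2-fold without NSL3 RNAi replicate 1 (0.98). *grk*, the oocyte ligand of the EGF receptor, had 499, 391 and 562 in NSL3 RNAi, against 276, 312 and 295 in *white* RNAi, and was not called (log2FC 0.70, SE 0.17, limma adjusted p = 0.00678). *stau*, *pum*, *BicD* and *egl* were not called (log2FC -0.23, -0.29, -0.45 and -0.54). *cup* is listed at 0 in all 6 libraries and was not tested. Replicate 2 was the highest NSL3 RNAi library for 27 of the 29 genes, with a median of 2.84 times the replicate 1 value.

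All 20 genes of DNA replication fell (median log2FC -1.82), under each scaling, with each tool and without any 1 library. *Mcm5*, a subunit of the MCM helicase, had 1259.7, 3103 and 1272 in NSL3 RNAi, against 7061, 6782 and 6815 in *white* RNAi (log2FC -2.01, SE 0.33, limma adjusted p = 0.00151). *Orc2*, of the origin recognition complex, had 285, 828 and 309.8 in NSL3 RNAi, against 1940.5, 1976 and 1739.9 in *white* RNAi (log2FC -2.17, SE 0.39, limma adjusted p = 0.00195), and *dup*, the Cdt1 licensing factor, had 1202, 2969.8 and 1286 in NSL3 RNAi, against 6058, 5983 and 5608 in *white* RNAi (log2FC -1.82, SE 0.33, limma adjusted p = 0.00199). In these genes replicates 1 and 3 lay close together and replicate 2 lay between them and the controls. Of 18 cell cycle regulators, 16 fell and 0 rose (median log2FC -1.64). *CycE*, the cyclin of DNA replication entry, had 1463, 3990.3 and 1452 in NSL3 RNAi, against 7764, 6933 and 6258 in *white* RNAi (log2FC -1.77, SE 0.38, limma adjusted p = 0.00402), and the mitotic kinase gene *polo* had 2213, 5438 and 2856 in NSL3 RNAi, against 10520.4, 10517 and 9534 in *white* RNAi (log2FC -1.65, SE 0.30, limma adjusted p = 0.00216). The exceptions were *rap*, the Cdh1 activator of the anaphase-promoting complex, and *E2f* (log2FC -0.41 and -0.085, not called), while *E2f2* fell (log2FC -1.66). Among histone genes and their partners, 8 of 14 fell and 0 rose (9 fell without replicate 2). The centromeric histone gene *cid* had 186, 493 and 196 in NSL3 RNAi, against 1474, 1338 and 1101 in *white* RNAi (log2FC -2.30, SE 0.37, limma adjusted p = 0.00137), whereas the replacement histone genes *His3.3A* and *His3.3B* were not called (log2FC -0.37 and 0.32).

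Meiotic genes fell in 11 of 21 cases and rose in 2 (median log2FC -1.20), with 15 lower and 3 higher without replicate 2 and 1 higher without *white* RNAi replicate 1. *c(2)M*, a kleisin of the synaptonemal complex, had 109.6, 260.0 and 168 in NSL3 RNAi, against 743, 772 and 831 in *white* RNAi (log2FC -2.20, SE 0.30, limma adjusted p = 6.50e-04), and the meiotic Cdc20 gene *cort* had 255, 663 and 243 in NSL3 RNAi, against 1289, 1297 and 1208 in *white* RNAi (log2FC -1.87, SE 0.37, limma adjusted p = 0.0029). *ord*, a cohesion protein, had 58.0, 14.8 and 67.1 in NSL3 RNAi, against 4.72, 4.42 and 5.52 in *white* RNAi, and rose (log2FC 2.76, SE 0.59, limma adjusted p = 0.00387). It passed the minimum only through NSL3 RNAi, so it had to differ. Of 14 genes of germline stem cells and early cysts, 4 rose and 4 fell, with 2 of the rises in genes that passed only through NSL3 RNAi. The share that rose was 28.6%, beside 29.6% of all genes, and the share that fell 28.6%, beside 14.6%. *bam*, the differentiation factor of cystoblasts, had 387, 1055 and 498 in NSL3 RNAi, against 967, 875 and 740.3 in *white* RNAi and overlapped (log2FC -0.54, SE 0.35, limma adjusted p = 0.191). Its partner gene *bgcn* had 98.0, 25.0 and 57.1 in NSL3 RNAi, against 7.08, 6.63 and 4.73 in *white* RNAi, and rose (log2FC 2.91, SE 0.52, limma adjusted p = 0.00191). *zpg*, the germline innexin, had 891, 2631 and 1489 in NSL3 RNAi, against 6058, 6062 and 5576 in *white* RNAi, and fell (log2FC -1.96, SE 0.35, limma adjusted p = 0.00197), as did *ovo*, a factor of the female germline (log2FC -1.38). The spectrin gene *alpha-Spec* and *chinmo* rose (log2FC 2.60 and 2.36), and *Sxl*, the female switch gene, was not called (log2FC 0.78). *esg*, a stem cell factor, had 34.8, 5.68 and 34.3 in NSL3 RNAi and 0 reads in *white* RNAi, at least 30.9-fold higher.

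Genes of the piRNA pathway, which silences transposons through PIWI proteins and their small RNAs, fell in 20 of 32 cases and rose in 1 (median log2FC -1.13). The count of falls was 22 without replicate 2, 16 by edgeR and 15 by DESeq2. *rhi*, the HP1 paralog of dual-strand clusters, had 188, 406 and 223 in NSL3 RNAi, against 896, 988 and 926 in *white* RNAi (log2FC -1.86, SE 0.28, limma adjusted p = 0.00102), and *AGO3*, a PIWI protein of the ping-pong cycle, had 668, 1421 and 825 in NSL3 RNAi, against 3089.8, 2975 and 2871 in *white* RNAi (log2FC -1.69, SE 0.26, limma adjusted p = 0.00112). *piwi* itself had 2899, 3993 and 3312 in NSL3 RNAi, against 5606, 5999.8 and 5787 in *white* RNAi, and was not called (log2FC -0.78, SE 0.13, limma adjusted p = 0.00134). The largest fall was that of *BoYb*, a Yb paralog of the germline, with 144, 322 and 231 in NSL3 RNAi, against 1120.2, 1174 and 1134 in *white* RNAi (log2FC -2.37, SE 0.27, limma adjusted p = 3.18e-04). *fs(1)Yb*, which encodes the Yb protein of somatic cells, had 490.0, 246 and 408 in NSL3 RNAi, against 38.6, 48.6 and 60.7 in *white* RNAi, and rose (log2FC 2.89, SE 0.31, limma adjusted p = 1.99e-04). *armi*, which works in both tissues, had 3831, 3979 and 3933 in NSL3 RNAi, against 6180.4, 6489 and 5983 in *white* RNAi (log2FC -0.67, SE 0.076, limma adjusted p = 2.84e-04, not called). For 29 of the 32 genes, replicate 2 was the highest NSL3 RNAi library.

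Of 14 heterochromatin genes 9 fell and 0 rose (10 fell without replicate 2), and of 19 genes of DNA damage signalling and telomere caps 9 fell and 0 rose (12 without replicate 2). *HipHop*, a telomere capping protein, had 661, 1569 and 688 in NSL3 RNAi, against 3436, 3545 and 3199 in *white* RNAi (log2FC -1.92, SE 0.32, limma adjusted p = 0.00151). The checkpoint kinase gene *lok*, Chk2, had 2411, 6029 and 3502 in NSL3 RNAi, against 12446, 13241 and 12342 in *white* RNAi (log2FC -1.77, SE 0.30, limma adjusted p = 0.00161), and the methyltransferase gene *Su(var)3-9* had 279.8, 519 and 318 in NSL3 RNAi, against 922, 953 and 866 in *white* RNAi (log2FC -1.34, SE 0.23, limma adjusted p = 0.00172). The MSL complex raises the output of the male X chromosome. Of 6 tested genes of its list, 2 rose (33.3%, near the 29.6% of all genes). Another 2 fell (33.3%, beside 14.6%), and 3 fell without replicate 2. The female-expressed scaffold gene *msl-1* had 2389, 4564 and 3033 in NSL3 RNAi, against 7841, 8145 and 7472 in *white* RNAi, and fell (log2FC -1.28, SE 0.22, limma adjusted p = 0.00168), as did *msl-3* (log2FC -1.29). *msl-2*, the male-limited subunit that Sex-lethal keeps off in females, had 370.1, 224 and 315 in NSL3 RNAi, against 117, 114 and 123 in *white* RNAi, and rose (log2FC 1.32, SE 0.22, limma adjusted p = 0.00145). *roX1*, a noncoding RNA of the complex that is abundant in males, had 102, 49.9 and 84.2 in NSL3 RNAi, against 2.36, 2.95 and 8.67 in *white* RNAi, and rose (log2FC 3.92, SE 0.50, limma adjusted p = 5.16e-04). It passed the minimum only through NSL3 RNAi.

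Few genes of the basic cellular machinery were called. Of 73 cytosolic ribosomal protein genes 70 were not called (median log2FC -0.098, and 0.0064 with scaling over genes alone). The 3 exceptions are paralogs of other members. *RpS5b*, enriched in the germline, had 4071, 10050.1 and 6301 in NSL3 RNAi, against 19769, 19912 and 18497 in *white* RNAi, and fell (log2FC -1.61, SE 0.29, limma adjusted p = 0.00214), while its paralog *RpS5a* had 11420.0, 7738 and 9649 in NSL3 RNAi, against 4069.9, 4361 and 4816 in *white* RNAi, and rose (log2FC 1.11, SE 0.15, limma adjusted p = 6.83e-04; 0.97 without NSL3 RNAi replicate 1), and *RpS19b* rose (log2FC 3.92). Of 26 nuclear genes of the respiratory chain 0 were called (median log2FC 0.041, and -0.036 with scaling by total gene reads), although limma gave 6 higher and 7 lower with no fold minimum. With no fold minimum, 37.0% of all tested genes were higher and 43.2% lower. Of 31 proteasome genes 0 were called as well (2 fell without replicate 2), but 30 were lower with no fold minimum, a larger share than over all genes. All 31 had replicate 2 as the highest NSL3 RNAi library (median log2FC -0.58). Of 72 mitochondrial ribosomal protein genes 11 fell (15.3%, near the 14.6% of all genes). With no fold minimum 66 were lower, again a larger share than the 43.2% of all genes (median log2FC -0.67). The falls numbered 4 without replicate 1, 19 without replicate 2, 7 by edgeR, 3 by DESeq2 and 6 with scaling over genes alone. Among 22 translation initiation genes, *Thor*, the eIF4E-binding repressor induced by stress, rose with 2873, 2570.2 and 3959 in NSL3 RNAi, against 141, 119 and 212 in *white* RNAi (log2FC 4.32, SE 0.25, limma adjusted p = 1.40e-05), and 21 were not called. Among 13 glycolysis genes, *ImpL3*, lactate dehydrogenase, had 423, 274 and 373 in NSL3 RNAi, against 2.36, 5.16 and 2.37 in *white* RNAi (log2FC 6.42, SE 0.34, limma adjusted p = 1.07e-05) and *Ald* rose slightly past the threshold (log2FC 1.03), which it missed with scaling by total gene reads and without NSL3 RNAi replicate 1, NSL3 RNAi replicate 3 or *white* RNAi replicate 3 (0.98 to 0.99 without 1 library). *ImpL3* and *RpS19b* passed the minimum only through NSL3 RNAi, so they had to differ.

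**Figure D3:**
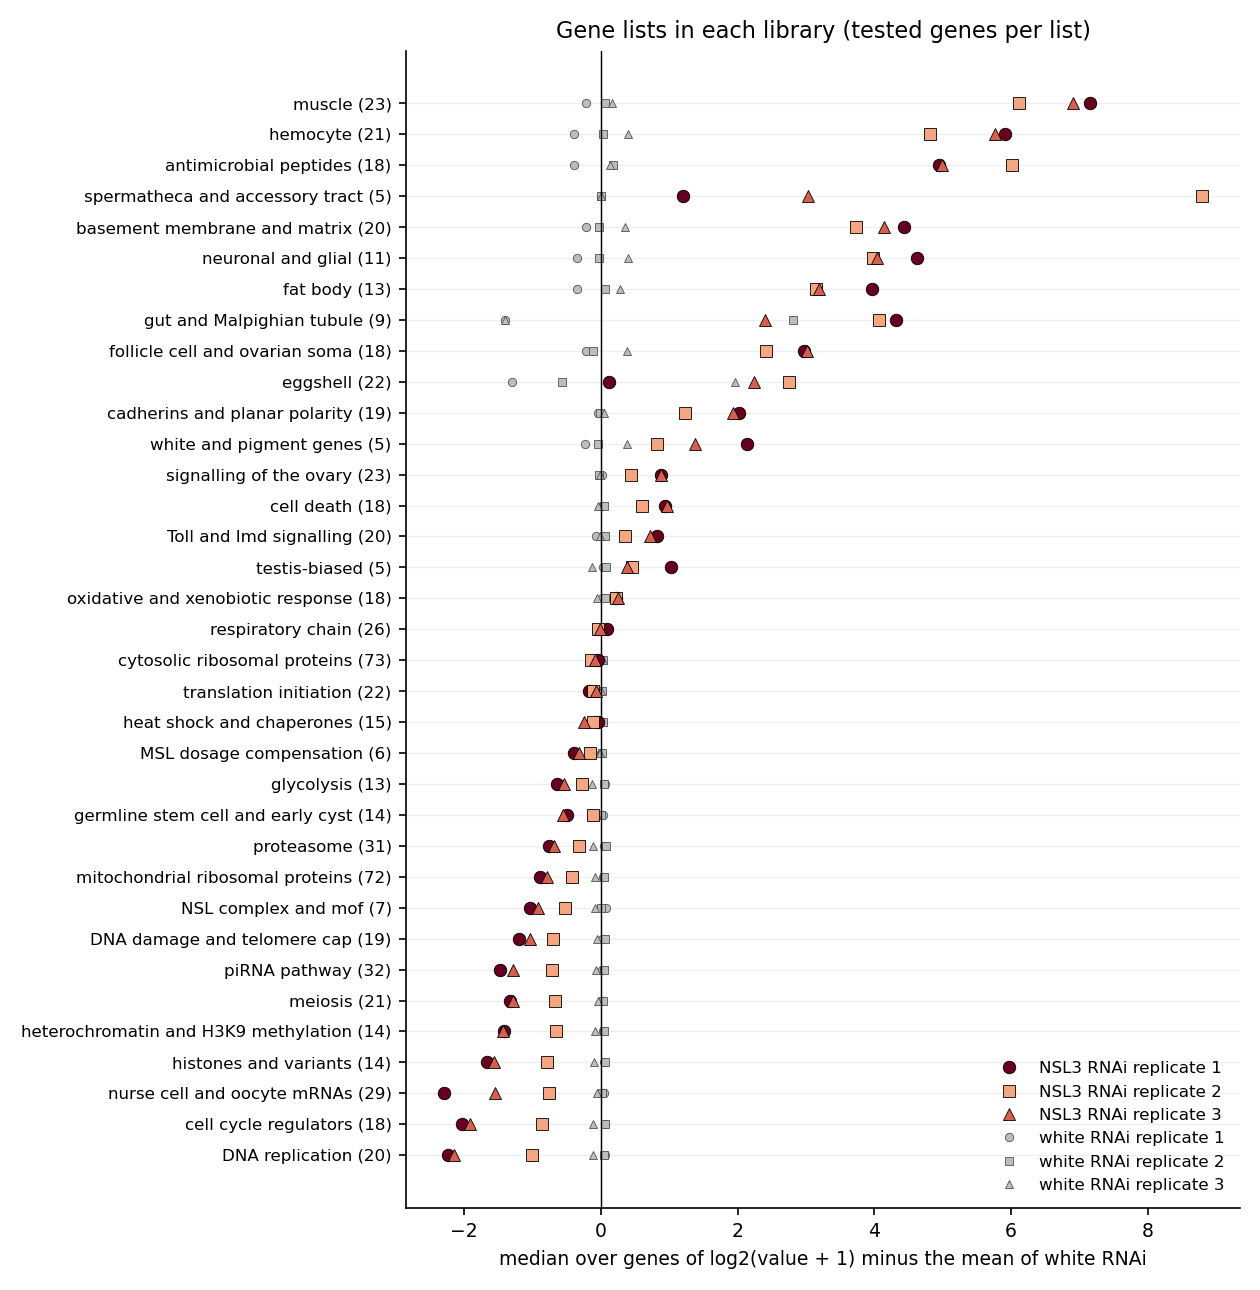
For each list (number of tested genes in brackets), symbols give the median over genes of the log2(value + 1) difference from the mean of *white* RNAi, in the 3 NSL3 RNAi libraries (coloured) and the 3 *white* RNAi libraries (grey). Muscle genes stand at 7.16, 6.11 and 6.91 in NSL3 RNAi replicates 1, 2 and 3 and DNA replication genes at -2.23, -1.01 and -2.14, with replicate 2 (squares) nearest to 0 in both.

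Some genes of stress and cell death rose. *rpr*, an antagonist of the caspase inhibitor IAP1, had 328, 160.1 and 314 in NSL3 RNAi, against 1.57, 2.95 and 1.58 in *white* RNAi (log2FC 6.43, SE 0.38, limma adjusted p = 1.52e-05), and *skl*, of the same family, had 153 reads in NSL3 RNAi against 3 in *white* RNAi, a ratio of 84.3 at equal depth (95% counting interval 28.3 to 413). That interval covers counting error only. *rpr* and *skl* passed the minimum only through their NSL3 RNAi values, so they had to differ. *Xrp1*, a stress-induced bZIP factor, had 4289.8, 2911 and 4979 in NSL3 RNAi, against 359.8, 478 and 529.8 in *white* RNAi (log2FC 3.14, SE 0.23, limma adjusted p = 3.49e-05). The TNF ligand gene *egr* and its receptor gene *wgn* rose (log2FC 4.39 and 4.38), as did *puc*, a target of JNK signalling (log2FC 1.36). The caspase genes *Nc* and *Dcp-1* fell (log2FC -1.14 and -1.25; -0.97 and -0.96, short of 2-fold, without NSL3 RNAi replicate 1; *Nc* -0.97 by DESeq2), and *p53* was not called (log2FC -0.89). In all, 9 of 18 rose (50%) and 3 fell (16.7%, and 1 without NSL3 RNAi replicate 1). Among 15 tested heat shock and chaperone genes 6 rose (40%) and 3 fell (20%), with 4 lower without replicate 2 and 1 without replicate 1 of NSL3 RNAi and by DESeq2. Over all tested genes 29.6% rose and 14.6% fell. *Hsp68* had 2263, 1049 and 4558 in NSL3 RNAi, against 71.6, 74.4 and 72.5 in *white* RNAi (log2FC 4.90, SE 0.48, limma adjusted p = 1.29e-04) and *Hsp23* had 1665, 1274 and 1523 in NSL3 RNAi, against 63.8, 82.6 and 52.8 in *white* RNAi (log2FC 4.48, SE 0.20, limma adjusted p = 7.46e-06), whereas *Hsp26*, which nurse cells express in development, had 5677, 15229 and 8098 in NSL3 RNAi, against 25831, 25874 and 21528 in *white* RNAi, and fell (log2FC -1.45, SE 0.33, limma adjusted p = 0.0051). *Hsp70Bc* rose (log2FC 4.63), but the inducible *Hsp70* copies are near-identical and the counting may have split their reads. Of 18 genes of the oxidative and xenobiotic response 7 rose (38.9%), among them *Cat*, catalase, with 6238, 3635 and 4379.6 in NSL3 RNAi, against 849, 831 and 849 in *white* RNAi (log2FC 2.46, SE 0.19, limma adjusted p = 4.34e-05), and *GstD1* fell (log2FC -1.04; -0.99 without *white* RNAi replicate 1 and short of 2-fold in the count tools and with scaling over genes alone).

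The largest falls concerned single genes of several kinds. *CG32581*, now named *sordd2*, had 0 reads in NSL3 RNAi and 283, 278 and 254 normalized reads in *white* RNAi, at least 213-fold lower. *Syt4*, a synaptotagmin of vesicle fusion, had 6.45, 3.41 and 7.14 in NSL3 RNAi, against 316, 377 and 426 in *white* RNAi (log2FC -5.85, SE 0.31, limma adjusted p = 1.04e-05), and *CG11263* had 3.87, 10.2 and 14.3 in NSL3 RNAi, against 541, 533 and 549 in *white* RNAi (log2FC -5.85, SE 0.42, limma adjusted p = 3.06e-05). In NSL3 RNAi, no library exceeded 7.14 for *Syt4* and 14.3 for *CG11263*. *CG13636*, now named *sosie*, had 16.8, 22.7 and 44.3 in NSL3 RNAi, against 346, 440.0 and 711 in *white* RNAi (log2FC -4.16, SE 0.41, limma adjusted p = 1.46e-04), and *CG4570* had 355, 1038 and 345 in NSL3 RNAi, against 5366, 5325 and 5247 in *white* RNAi (log2FC -3.40, SE 0.40, limma adjusted p = 3.49e-04). *CG14715*, *CG2187* and the acetylcholine receptor gene *nAcRalpha-80B* fell by similar amounts (log2FC -3.001, -3.59 and -3.11), as did *CG13982*, *CG34406* and the adhesion protein gene *Dscam4* (-3.22, -3.21 and -4.09). The antisense RNA *CR44124* completes the 12 largest falls (log2FC -3.19); the strand used in counting is not given, so its reads cannot be told apart from those of its partner. Of the 12, 7 had their highest NSL3 RNAi value in another library than replicate 2. Among pigment genes other than *w*, *y*, a cuticle pigment protein, had 2.58, 0 and 5.71 in NSL3 RNAi, against 24.4, 48.6 and 58.3 in *white* RNAi (log2FC -3.87, SE 0.74, limma adjusted p = 0.00256), and *v*, tryptophan oxygenase, had 5.16, 10.2 and 12.8 in NSL3 RNAi, against 33.1, 37.6 and 47.3 in *white* RNAi (log2FC -2.02, SE 0.39, limma adjusted p = 0.00272). The methods list the *white* RNAi stock with named alleles of *y* and *v*, whose part in these values was not tested. *ry*, xanthine dehydrogenase, and *st*, a pigment transporter, rose (log2FC 3.53 and 1.44). These genes passed the minimum only through NSL3 RNAi, so they had to differ. *st* lost its call without NSL3 RNAi replicate 3, *white* RNAi replicate 2 or *white* RNAi replicate 3 (limma adjusted p = 0.0566, 0.0771 and 0.0617).

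The 3 knockdown libraries differed more from each other than the controls did. The range of log2 values over 3 libraries had a median of 0.54 in NSL3 RNAi and 0.19 in *white* RNAi, and 79.7% of genes had the wider range in NSL3 RNAi. In NSL3 RNAi 18.6% of tested genes (1652) spanned more than 2-fold, against 9.55% (850) in *white* RNAi. Much of the second number came from genes with few reads. Among 6484 genes with a mean of at least 100 in both groups, 554 spanned more than 2-fold in NSL3 RNAi and 55 in *white* RNAi. The gap between the groups was widest for the genes that fell. Of 1295 such genes, 467 spanned more than 2-fold in NSL3 RNAi and 4 in *white* RNAi. In replicate 1, 1289 of them lay more than 2-fold below the *white* RNAi mean, in replicate 3 1264, and in replicate 2 259. Of 2635 genes that rose, 960 spanned more than 2-fold in NSL3 RNAi and 742 in *white* RNAi. Most stood above the controls in each library, with 2607, 2601 and 2400 of 2635 more than 2-fold above the *white* RNAi mean in replicates 1, 3 and 2. Replicate 2 had a median difference of -0.81 from the controls for genes that fell, against -1.63 in replicate 1 and -1.47 in replicate 3. For genes that rose its median was 2.99, against 3.80 in replicate 1 and 3.52 in replicate 3.

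**Figure D4:**
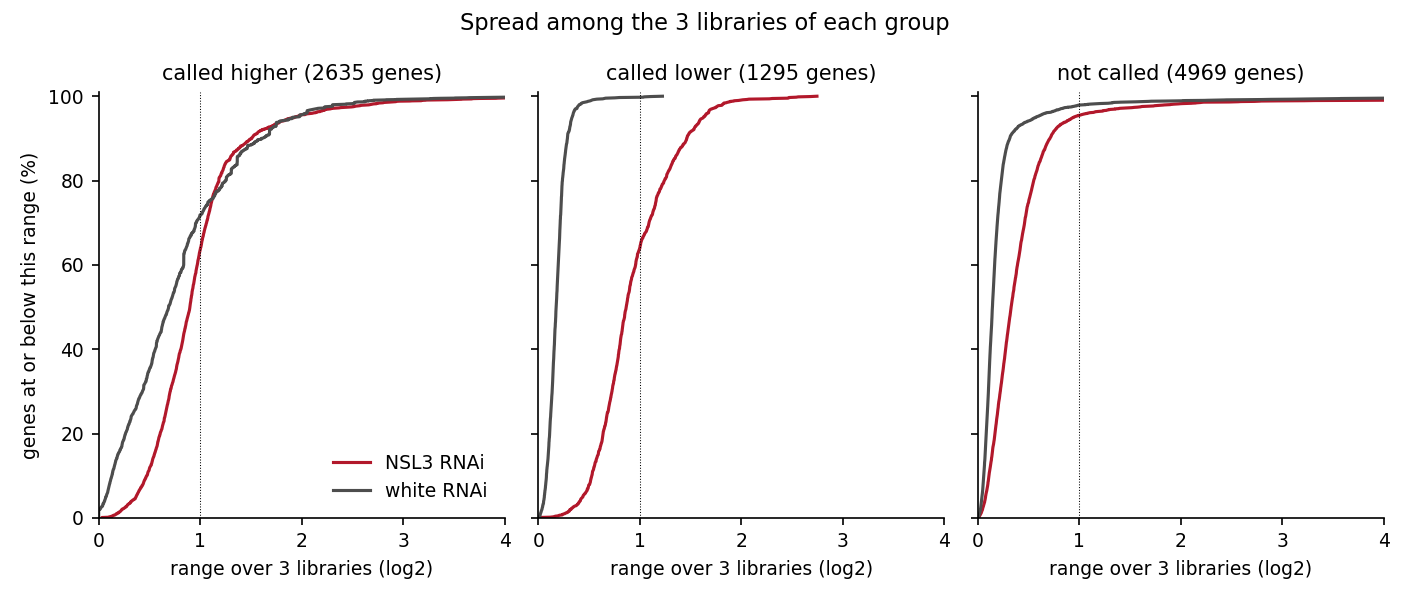
Cumulative share of genes (vertical axis, percent) by the range of log2(value + 1) over 3 libraries (horizontal axis), for NSL3 RNAi (red) and *white* RNAi (grey), among genes called higher, lower and not called. The groups are close for genes called higher (median range 0.90 in NSL3 RNAi and 0.69 in *white* RNAi) and far apart for genes called lower (0.87 in NSL3 RNAi and 0.18 in *white* RNAi).

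Eggshell genes varied widely in both groups. All 22 spanned more than 2-fold in NSL3 RNAi and 20 of them did in *white* RNAi, with a median range of 5.08 in NSL3 RNAi and 3.55 in *white* RNAi on the log2 scale. *Cp15*, a late chorion protein, had 69483, 5979 and 179.9 in NSL3 RNAi, against 4837, 6843 and 9936 in *white* RNAi (log2FC -0.71, SE 1.90, limma adjusted p = 0.739). *Cp36*, an early chorion protein, had 208, 11838 and 9700.0 in NSL3 RNAi, against 1761, 3795 and 10502 in *white* RNAi (log2FC -0.52, SE 1.54, limma adjusted p = 0.765). Both differences are positive by edgeR and DESeq2, so no direction can be given. Replicate 1 was the highest NSL3 RNAi library for *Cp15* and the lowest for *Cp36*. The vitelline membrane gene *Vm32E*, active before the chorion is laid down, had 15.5, 2316 and 1349 in NSL3 RNAi, against 4.72, 2.95 and 168 in *white* RNAi (log2FC 4.57, SE 2.15, limma adjusted p = 0.0852). *dec-1*, needed for eggshell assembly, had 594, 18201 and 10291 in NSL3 RNAi, against 244, 342 and 3857 in *white* RNAi (log2FC 2.81, SE 1.49, limma adjusted p = 0.119). *Vm32E* and *dec-1* were called without NSL3 RNAi replicate 1 (log2FC 6.82 and 4.32) and without *white* RNAi replicate 3 (6.29 and 4.05). With a replicate block both were called (limma adjusted p = 0.0363 and 0.037), and *Vm32E* was by DESeq2 (adjusted p = 0.0268). In 21 of the 22 genes *white* RNAi replicate 3 was the highest control, and its summed level was 77334, against 26279.6 and 37169.5 in the other controls. By limma 7 rose (31.8%, near the 29.6% of all genes) and 1 fell (3 without NSL3 RNAi replicate 2 and 2 without replicate 3). The count that rose was 4 by edgeR, 12 without *white* RNAi replicate 3, 3 without either other control and 9, 6 and 3 without NSL3 RNAi replicates 1, 2 and 3. The gene that fell was *Pxt*, an eggshell peroxidase, with 2838, 9094 and 4098 in NSL3 RNAi, against 16348, 16120.0 and 14677 in *white* RNAi (log2FC -1.73, SE 0.38, limma adjusted p = 0.00461).

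Among the 12 genes with the widest range in NSL3 RNAi, several were high in replicate 2 alone. *CG32834*, a protease of the spermatheca, the sperm storage organ, had 7.74, 2839 and 15.7 in NSL3 RNAi and 1 read in *white* RNAi. *Send1*, another spermathecal protease, had 1.29, 787 and 7.14, and *CG17239* had 0, 442 and 5.71, both with 0 reads in *white* RNAi. *CG31681* had 3.87, 1158 and 1.43 in NSL3 RNAi against 1 read in *white* RNAi, and *CG9897* had 1.29, 671 and 1.43 against 0 reads. *CG43074* had 3.87, 2406 and 7.14 in NSL3 RNAi, against 3.94, 2.95 and 3.15 in *white* RNAi. Of these 6, *CG32834* passed the limma test (adjusted p = 0.0287), which it missed without any one of the *white* RNAi libraries (adjusted p 0.0555 to 0.0758) or with a pseudocount of 5 (0.0798), and the others did not, although *CG31681* passed without NSL3 RNAi replicate 3 (adjusted p = 0.0458). By edgeR *CG31681* and *CG43074* were called (adjusted p = 0.0235 and 0.028). The ratio of *CG32834* reads, pooled over libraries at equal depth, was 4162 (95% counting interval 746 to 164439). This interval covers counting error only and not the spread among libraries, and nearly all the NSL3 RNAi reads came from replicate 2. *CG32834* also passed the minimum only through NSL3 RNAi. The 9 listed genes of the spermatheca and accessory tract summed to 1964, 5742 and 1545 in NSL3 RNAi, against 1459 to 1563 in *white* RNAi, and 2 of 5 tested rose, the other being the esterase gene *Est-6* (log2FC 5.38). Without NSL3 RNAi replicate 2, 1 rose and 1 fell, without replicate 1 4 rose, and without any one control 1 did. The part of that organ's tissue in these values was not tested. *yellow-g2*, an eggshell enzyme, had 12.9, 2923 and 49.963 in NSL3 RNAi, against 177, 615 and 1978 in *white* RNAi, and *CG13114* had 5.16, 1484 and 181 in NSL3 RNAi, against 113, 357 and 1104 in *white* RNAi. *CG14309* was high in replicates 2 and 3, with 11.6, 2921 and 2274 in NSL3 RNAi, against 74.8, 78.9 and 1362 in *white* RNAi. *CG6508* was highest in replicate 1, with 566, 74.9 and 1.43 in NSL3 RNAi, against 37.0, 67.1 and 93.0 in *white* RNAi, and *CG15571* in replicate 3, with 0, 7.95 and 448 in NSL3 RNAi, against 28.3, 24.3 and 125 in *white* RNAi. *Cp15* completes the 12, and 11 of the 12 were not called. Without 1 NSL3 RNAi library, *CG14309* was called without replicate 1 (log2FC 3.67), *yellow-g2* without replicate 2 (-4.50) and *CG15571* without replicate 3 (-3.93). Gut genes varied in both groups. The trypsin gene *alphaTry* had 102, 85.1 and 14.3 in NSL3 RNAi, against 0, 75.2 and 0.788 in *white* RNAi, with *white* RNAi replicate 2 the only control above 1 normalized read. Of 9 tested gut genes 5 rose, 9 did without that control, 3 without NSL3 RNAi replicate 2 and 2 to 4 without any other library. Of the 9, 5 passed only through NSL3 RNAi, among them 4 of the 5 that rose. The 19 listed gut genes summed to 1046 to 2054 in NSL3 RNAi and 4.72 to 291 in *white* RNAi, 8 of them were at 0 in *white* RNAi, and their part in other results was not tested.

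**Figure D5:**
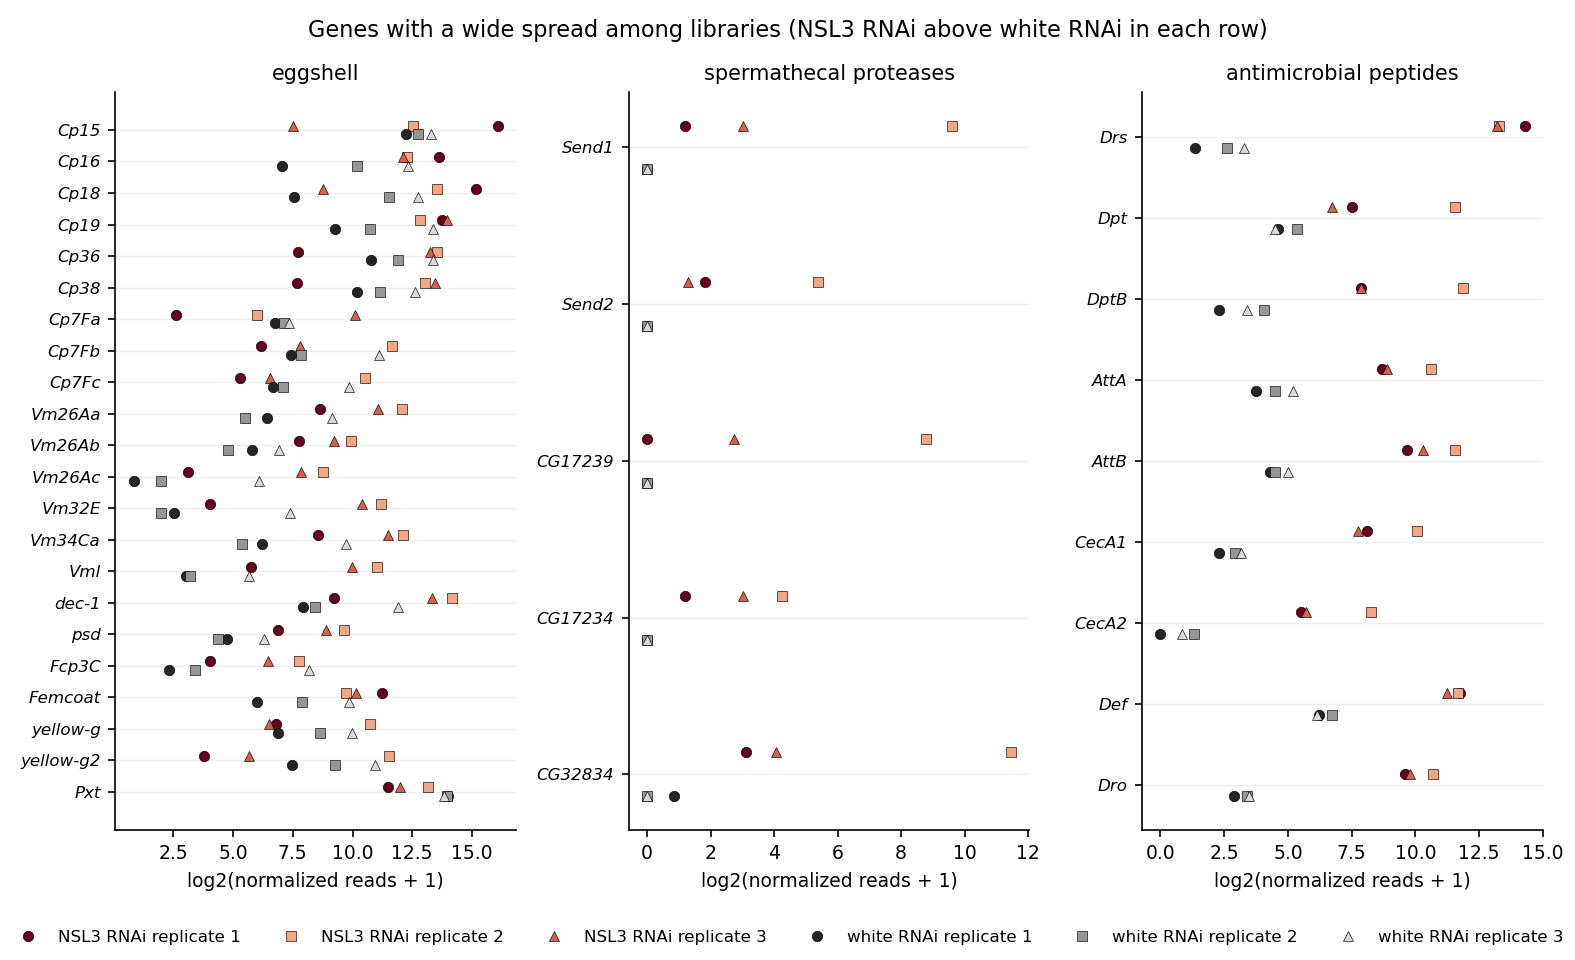
Values of single genes in each library on a log2(normalized reads + 1) axis, NSL3 RNAi (red shades, above the line) and *white* RNAi (grey shades, below the line), with replicates 1, 2 and 3 as circles, squares and triangles, for 22 eggshell genes, 5 spermathecal proteases and 9 antimicrobial peptide genes. The spermathecal proteases are highest in NSL3 RNAi replicate 2, the eggshell genes differ in which NSL3 RNAi library is highest, and *Drs* and *Def* are high in all 3.

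The same *white* RNAi libraries serve the NSL1 and NSL2 RNAi tables, which were each scaled alone, so list medians are given side by side over genes tested in all 3 tables, and their differences were not tested. Muscle genes (23) had a median log2FC of 6.73 in NSL3 RNAi, 6.13 in NSL1 RNAi and 0.62 in NSL2 RNAi. DNA replication genes (20) had -1.82, -1.84 and -0.31 in the same order, and piRNA pathway genes (32) -1.13, -0.82 and -0.13. Antimicrobial peptide genes (10) had 5.06 in NSL3 RNAi, 1.92 in NSL1 RNAi and 0.16 in NSL2 RNAi. Eggshell genes (22) had 2.14, 0.55 and 4.17. Over all 7966 genes tested in the 3 tables the medians were -0.28, -0.33 and -0.04.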

How the data were processed

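Stranded total RNA libraries of whole ovaries, depleted of ribosomal RNA, were sequenced from 3 crosses per genotype. The labels number only replicate 1 of each group, and replicates 2 and 3 are known from the column names. Per the methods, ribosomal reads were removed with bowtie2, the rest aligned to dm3 with STAR in piPipes and counted with featureCounts or eXpress, and DESeq2 was run. Versions and the strand used in counting are not given in the sources used here. The deposited signal values are reads that the authors divided by 1 size factor per library. The methods name spike-in size factors, but the table lists no spike-in rows. Dividing by the value of 1 read gave whole reads for 100% of values (tolerance 1e-06 reads). The authors' own fold changes and p-values in the table were not used.

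Genes, transposon families, other repeats and piRNA clusters with a mean of at least 10 entered one limma fit (log2(value + 1), variance trended on the mean), with Benjamini-Hochberg adjustment over 9102 features. A gene was called at an adjusted p below 0.05 and an absolute log2FC above 1. The tools were R 4.3.3, limma 3.58.1, edgeR 4.0.16, DESeq2 1.42.0, Python 3.11.15 and pandas 2.3.3. On simulated counts of this comparison with 7819 tested features, limma recovered 93 of 100 3-fold and 97 of 100 8-fold changes. It called 5 of 7622 unchanged features. The simulated libraries were drawn independently around the *white* RNAi means. Only 200 features were changed, all with a control mean of at least 10, so these rates may not hold for the real libraries. Alternatives were edgeR and DESeq2 on the recovered reads (edgeR called 2696 genes higher and 1056 lower), other scalings, pseudocounts of 0.5 and 5, other minimum means, a replicate block and leaving out each library. Named were the hairpin targets, list members, the 12 largest rises and falls without overlap and with a mean of at least 100 in the higher group, the 12 widest NSL3 RNAi ranges at such a mean, the 10 highest NSL3 RNAi means and the 10 largest statistics. The members and lists were chosen with earlier results of these data known. Genes carry the names of the table, matched to RefSeq synonyms.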

Additional observations from a re-analysis of the deposited data

Results flagged for a closer look

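The table also holds rows that are no annotated genes. Of 104 transposon families tested, 96 were higher in NSL3 RNAi and 0 lower (median log2FC 2.35). Of 97 piRNA cluster rows tested, 74 were higher and 1 lower (median log2FC 1.88). Over all tested genes, 29.6% were higher and 14.6% lower. Rows of each kind with a *white* RNAi mean under 10, such as *TAHRE*, *blood* and *cluster93*, passed the minimum only through NSL3 RNAi. Those rows had to differ, so the counts are partly set by that minimum. Both kinds of row lay mostly above the *white* RNAi level, entered the same fit and are counted among no genes above, and no explanation was tested. The study itself reports up-regulated transposon families in NSL1, NSL2 and NSL3 RNAi, with virgin *white* RNAi ovaries as the control for NSL3 RNAi.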

How the results depend on the processing

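Of the main counts, 2635 genes higher became 4112 with no minimum mean and 1756 with a minimum mean of 50, and 1295 genes lower became 862 by DESeq2 and 3841 with no fold minimum. DESeq2 gave no adjusted p for 4 called genes, which are not counted as lost. The other settings gave 2457 to 3293 higher and 1027 to 1546 lower. Without 1 library in turn, 2363 to 2713 genes were higher and 963 to 1791 lower, with the ends of the second range from leaving out NSL3 RNAi replicates 1 and 2. Genes spanning more than 2-fold fell in number with a minimum mean of 50 to 1069 in NSL3 RNAi and 420 in *white* RNAi, and in *white* RNAi to 280 with a pseudocount of 5. Same-numbered libraries had correlations of deviations of -0.16, 0.02 and 0.22, and differently numbered ones -0.22 to 0.15. With 3 libraries a group, these values cannot decide whether the numbers pair the samples. With a replicate block, 2632 genes were higher and 1295 lower.

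Differences that changed sign belong to genes whose groups overlap. By edgeR the log2FC was 0.12 for *CG13114*, 1.41 for *CG15571*, 1.76 for *CG6508*, 1.86 for *Cp15*, 0.48 for *Cp36*, 0.14 for *yellow-g2*, 0.057 for *Ef2b* and 0.027 for *Stat92E*. By DESeq2 it was 0.18, 1.51, 1.87, 1.98, 0.56, 0.19, 0.15 and 0.12 in that order, 0.062 for *E2f* and 0.063 for *ttk*. Scaling over genes alone gave 0.019 for *E2f*, 0.10 for *Ef2b*, 0.070 for *Stat92E* and 0.017 for *ttk*, and scaling by total reads -0.056 for *Ef1alpha48D*. Without 1 library in turn, the range was -3.41 to 0.55 for *CG13114*, -3.93 to 0.48 for *CG15571*, -1.54 to 1.38 for *Cp36*, -0.25 to 3.67 for *CG14309*, -2.20 to 1.73 for *CG6508*, -2.73 to 1.56 for *Cp15*, -0.0054 to 0.035 for *Ef1alpha48D* and -0.023 to 0.015 for *Ef2b*. The cause was not tested.

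Over all alternatives, the number of list members higher or lower stayed within 1.5 times of its reported value in 1201 cases. It moved further in 95. The call of a named gene held in 3161 cases, was lost in 29 and gained in 53. In the other 34 cases the log2FC of a gene that was not called changed sign, and it was not called there either. Limits: 3 libraries a group allow an exact p of at least 0.1 for a single value, so calls rest on limma's shared estimate of the spread. The NSL3 RNAi libraries were shallower, and genes under the minimum mean could not be judged. No alternative separates the knockdown from the fly line, mating status or attached tissue.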
